A study of Mus musculus with 28 samples.

Results

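Nod2, Card9 and Traf6 are 3 genes of innate immune signalling that were read by 1 probe pair each on a NanoString panel of 72 gene targets, 55 of which had values in every sample once the housekeeping genes were left out. They were taken by name from the raw count table, with earlier results of these data known. The samples were monocyte-derived cells from C57BL/6 mice. Donor monocytes were wild type (WT) or Trem1-/-, which lack the activating receptor TREM-1, and were given to CCR2-/- recipients, whose own monocytes leave the bone marrow poorly. The small intestine of the recipient had either been left alone (control) or been surgically manipulated 1 day before the transfer (inflamed), and on day 1 after the transfer 100 cells of donor origin were sorted from each recipient. There were 5 WT control, 5 WT inflamed, 5 Trem1-/- control and 7 Trem1-/- inflamed samples. Primary bone marrow monocytes of mice that had no surgery, which had not been transferred, gave 3 WT and 3 Trem1-/- samples. All 4 intestinal groups shared the CCR2-/- recipient, so no intestinal value came from a host with its full supply of monocytes. The ages of the mice and the sort gate were not given in the sources used here. Samples are numbered by mouse, and p-values measure the spread between these samples, part of which may be technical.

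NOD2 is a cytosolic receptor for muramyl dipeptide, a fragment of bacterial cell walls, and signals to NF-kappaB through the kinase RIPK2. CARD9 is an adaptor that joins BCL10 and MALT1 downstream of SYK-coupled receptors such as Dectin-1, a sensor of fungal cell walls, and it also takes part in signalling from NOD2. TRAF6 is a ubiquitin ligase used by the Toll-like and interleukin 1 receptors, and in many cells the signals of all 3 proteins end at NF-kappaB and MAP kinases. NOD2 and CARD9 are known in human genetics for variants linked to inflammatory bowel disease. TREM-1 signals through DAP12 and SYK, and CARD9 lies downstream of SYK in myeloid cells.

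The targets of the probes were 100 bases long and lay at bases 1087 to 1186 of the Nod2 transcript, 1228 to 1327 of the Card9 transcript and 981 to 1080 of the Traf6 transcript. In the GRCm38.p6 build of RefSeq, Nod2 spans chr8:88647315-88688474, Card9 spans chr2:26352187-26360945 and Traf6 spans chr2:101678420-101701668. The 3 genes did not move alike, as the values below show, so the stretch upstream of each is given. Each runs 5′ to 3′ on the strand of the gene, from 250 to 37 bases before the start that RefSeq's promoter table uses, and covers 214 bases outside the annotated gene. Capitals mark the GC box, GGGCGG on either strand, the motif bound by SP1-family factors.
Nod2, chr8:88647097-88647310, plus strand: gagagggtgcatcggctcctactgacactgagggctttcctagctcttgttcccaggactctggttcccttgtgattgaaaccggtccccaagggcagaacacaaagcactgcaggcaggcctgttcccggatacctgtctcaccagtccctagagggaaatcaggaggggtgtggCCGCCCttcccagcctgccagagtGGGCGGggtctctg
Traf6, chr2:101678170-101678383, plus strand: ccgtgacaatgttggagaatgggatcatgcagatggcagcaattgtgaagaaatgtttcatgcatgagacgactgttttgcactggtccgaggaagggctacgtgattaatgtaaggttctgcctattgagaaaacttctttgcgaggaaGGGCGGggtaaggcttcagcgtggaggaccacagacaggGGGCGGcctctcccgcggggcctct
Card9, chr2:26360946-26361159, minus strand: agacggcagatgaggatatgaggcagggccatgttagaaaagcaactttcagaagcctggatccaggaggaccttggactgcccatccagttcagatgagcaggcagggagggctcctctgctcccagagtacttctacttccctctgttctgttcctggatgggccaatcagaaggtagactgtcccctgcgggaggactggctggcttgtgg

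The Nod2 and Traf6 stretches each held 2 GC boxes and the Card9 stretch held none. Of the 32851 promoter windows of the same length in the RefSeq table, 27.6% held at least 1. An NF-kappaB-type motif was searched on both strands and matched none of the 3 stretches, and 0.329% of all windows held it. The same was true of a PU.1-type motif, GAGGAAGT, which 1.95% of all windows held. The GC content was 60.3% for Nod2, 56.1% for Card9 and 53.3% for Traf6, beside a median of 51.9% over all windows. These matches describe letters in a window and were not tested as binding sites.

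Total gene counts ran from 720570 to 1625959 per sample with a median of 1348258.5. The lowest count of any of the 3 genes in any sample was 769, and each count was at least 17.3 times the background limit of its sample, which was set from the 5 usable negative control probes. Each sample was scaled by 3 housekeeping genes (Actb, Gapdh and Rpl19, combined as a geometric mean), and the scaled value is called the normalised count below. The scaling factor was 1.17 to 1.63 in marrow, 0.58 to 1.05 in WT inflamed and 0.95 to 1.12 in Trem1-/- inflamed samples. In WT inflamed samples Actb ran from 71677 to 128120 counts and Gapdh from 51728 to 95817. In Trem1-/- inflamed samples they ran from 104027 to 128383 and from 102831 to 129929. Rpl19 was at 12809 in WT marrow mouse 1 and 3828 and 3206 in mice 2 and 3. These genes thus shifted against each other, tested only by leaving out each in turn. The RNA was amplified without molecular identifiers, so a count is not a number of RNA molecules, and fewer cells of a type cannot be told apart from less RNA per cell. Trem1 itself was blank in every Trem1-/- and marrow sample, so the donor genotype could not be checked against it. In 14 of the samples every deposited gene value was a whole multiple of 1 number, which was 1.33 in 8, 1.333 in 5 and 2 in 1 of them, and this multiplier was divided out. Among the intestinal samples with a multiplier, it was 1.333 or 2 in WT and 1.33 in Trem1-/- samples. The control probes carried it too in those WT samples and did not in those Trem1-/- samples. The positive control probes of the panel had a geometric mean of at most 729.3 in the WT intestinal samples and at least 766.2 in the Trem1-/- intestinal samples, so the genotypes did not overlap in this technical measure. Its part in the differences between genotypes was not tested beyond the scaling by these probes reported below.

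All 6 monocyte and macrophage markers with values (Csf1r, Ccr2, Cx3cr1, Cd14, Spi1 and Emr1) were above background in every sample. Their summed level ranged from 221215 to 323674 in WT control, 217305 to 276169 in WT inflamed, 184270 to 245933 in Trem1-/- control and 153204 to 181385 in Trem1-/- inflamed samples. The 4 dendritic cell markers with values (Itgax, Ccr7, Irf4 and H2-Ab1) summed to 101213 to 165233 in WT control and 5188.9 to 71354.5 in WT inflamed samples. In Trem1-/- cells that sum was 64809.5 to 148002 in control and 11151.3 to 39020.3 in inflamed samples, and in marrow it did not exceed 21216.3. Most of the sum in WT control samples was H2-Ab1, at a mean of 115620 beside 5353 for Itgax, 2293 for Ccr7 and 5167 for Irf4. In WT inflamed samples these means were 27333, 1030, 2185 and 2464 in the same order. None of the T cell or neutrophil markers on the lists had values, so those cells could not be looked for.

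The first question is the level of each gene over the 6 groups. Nod2, the muramyl dipeptide receptor, was highest on average in WT inflamed samples and lowest in Trem1-/- marrow. Its normalised counts in the 5 WT inflamed mice were 11824, 3502, 3782, 5470 and 7932, a mean of 6502 ± 3458 (SD, n = 5). The 5 WT control mice had 2087, 5956, 4822, 3641 and 2406, a mean of 3783 ± 1628 (SD, n = 5). WT inflamed mouse 1 was the highest of all, and the lowest WT inflamed samples lay inside the range of the WT controls.

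In the Trem1-/- control mice Nod2 was at 2346, 1853, 2123, 3669 and 3284, a mean of 2655 ± 782 (SD, n = 5). The 7 Trem1-/- inflamed mice ranged from 1788 to 2968 with a median of 2447, a mean of 2492 ± 408 (SD, n = 7). The Trem1-/- inflamed group thus had the narrowest range of the 4 intestinal groups, inside that of the Trem1-/- controls except for its lowest sample. Nod2 in marrow was at 1403, 2189 and 880 in WT, a mean of 1490 ± 659 (SD, n = 3). In Trem1-/- marrow it was at 470, 1272 and 811, a mean of 851 ± 403 (SD, n = 3). The order of the means was WT inflamed, WT control, Trem1-/- control, Trem1-/- inflamed, WT marrow and Trem1-/- marrow, and the ranges of each pair of neighbours in it overlapped.

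Card9, the adaptor, showed another order, with both marrow groups on top and both inflamed groups at the bottom. In marrow it was at 42821, 38523 and 22274 in WT, a mean of 34539 ± 10837 (SD, n = 3). The Trem1-/- marrow samples had 38440, 22860 and 18824, a mean of 26708 ± 10358 (SD, n = 3). The marrow groups overlapped each other and the control groups.

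In the WT control mice Card9 was at 23841, 20635, 32538, 20847 and 20598, a mean of 23692 ± 5130 (SD, n = 5). In the WT inflamed mice it was at 9339, 16225, 14123, 12232 and 9352, a mean of 12254 ± 3008 (SD, n = 5). Every WT inflamed sample was below every WT control sample. The Trem1-/- control mice had 22833, 23122, 21942, 12792 and 13138, a mean of 18765 ± 5314 (SD, n = 5). The 7 Trem1-/- inflamed mice ranged from 7443 to 12331 with a median of 10557, a mean of 10523 ± 1737 (SD, n = 7), and all were below every Trem1-/- control. The Trem1-/- controls fell into 3 higher and 2 lower samples, and the 2 lower were those whose deposited counts carried the multiplier 1.33. The neighbours in the order (WT marrow, Trem1-/- marrow, WT control, Trem1-/- control, WT inflamed, Trem1-/- inflamed) all overlapped.

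Traf6, the ubiquitin ligase, was highest in WT inflamed samples and the other 5 groups lay close together. In the WT inflamed mice it was at 33627, 53444, 19557, 14252 and 33730, a mean of 30922 ± 15244 (SD, n = 5). In the WT control mice it was at 25190, 15282, 16676, 13824 and 18178, a mean of 17830 ± 4420 (SD, n = 5). Of the WT inflamed samples 3 exceeded every WT control, and the other 2 lay among the controls.

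The Trem1-/- control mice had Traf6 at 15167, 16898, 9784, 8402 and 9273, a mean of 11905 ± 3849 (SD, n = 5). The 7 Trem1-/- inflamed mice ranged from 8572 to 18125 with a median of 14260, a mean of 13741 ± 3631 (SD, n = 7). Within that group the 4 samples with multiplier 1 lay between 14260 and 18125, and the 3 with multiplier 1.33 between 8572 and 11092. In marrow Traf6 was at 20467, 16438 and 7392 in WT, a mean of 14766 ± 6696 (SD, n = 3). In Trem1-/- marrow it was at 17923, 8520 and 6784, a mean of 11076 ± 5993 (SD, n = 3). The order ran WT inflamed, WT control, WT marrow, Trem1-/- inflamed, Trem1-/- control and Trem1-/- marrow, with overlap between all neighbours.

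**Figure D1:**
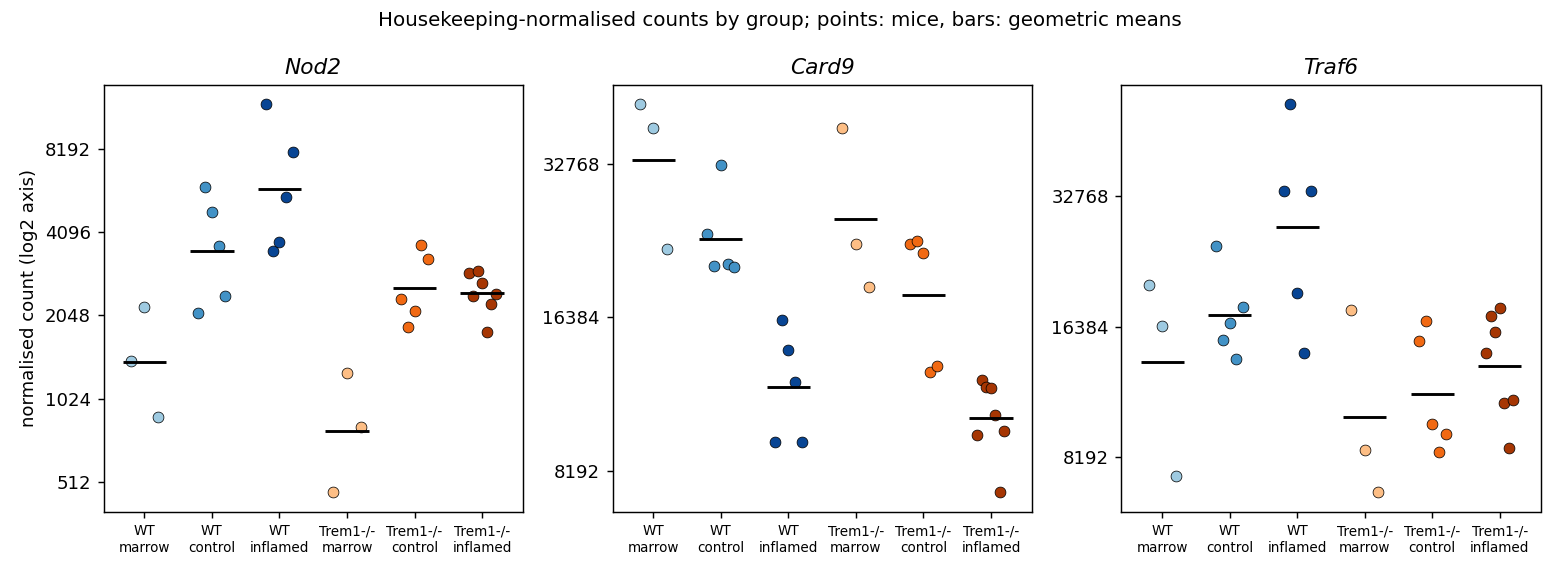
Normalised counts of Nod2, Card9 and Traf6 (log2 axis) in 28 samples, 1 point per mouse, with the geometric mean of each of the 6 groups as a bar. Card9 in each inflamed group lies wholly below the control group of its genotype, and Nod2 in the 7 Trem1-/- inflamed mice (1788 to 2968) lies wholly below the 5 WT inflamed mice (3502 to 11824).

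The second question is what the inflamed intestine changed. In WT cells Card9 fell and Traf6 rose, while Nod2 had a fold change of the same size as Traf6 but did not pass the test. Card9 was 1.93-fold lower in inflamed than in control samples (log2 fold change -0.95, SE 0.23, edgeR adjusted p = 0.00186). Traf6 was 1.73-fold higher (log2 fold change 0.79, SE 0.31, edgeR adjusted p = 0.0405). Nod2 had a log2 fold change of 0.78 (SE 0.36, edgeR adjusted p = 0.0786). In this comparison 47.3% of the 55 genes tested passed an adjusted p of 0.05, and 34.5% did not overlap between the groups, so a call was common on this panel. The median log2 fold change of all 55 genes was -0.08.

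The rise of Traf6 in WT cells was lost in 7 of 14 alternatives, among them TMM factors (0.22), DESeq2 (0.72), limma (0.68) and a replicate block (0.71). It was also lost when any one of WT control mice 2, 3, 4 and 5 or WT inflamed mice 1, 2 and 5 was left out, with the value lowest at 0.50 without WT inflamed mouse 2 (edgeR adjusted p = 0.162). Among samples with multiplier 1 alone the log2 fold change of Traf6 was 1.16, and among those with a multiplier near 1.33 it was 0.15. With Card9 the same values were -0.76, which did not pass (edgeR adjusted p = 0.0531), and -1.02, and with Nod2 1.14 and 0.13. The authors' normalised values gave Card9 a change of -0.40 in WT cells, which did not pass.

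In Trem1-/- cells Card9 fell as well, and neither Nod2 nor Traf6 passed the test. Card9 was 1.78-fold lower in inflamed than in control samples (log2 fold change -0.83, SE 0.21, edgeR adjusted p = 0.00263), a direction that flipped to 0.08 in the authors' normalised values. Nod2 had a log2 fold change of -0.09 (SE 0.33, edgeR adjusted p = 0.849) and Traf6 one of 0.21 (SE 0.29, edgeR adjusted p = 0.634). Of all genes 49.1% passed here, 30.9% did not overlap, and the median log2 fold change was 0.10. Within samples of multiplier 1 the change of Card9 was -0.98, and within those of 1.33 it was -0.48, the latter not past the threshold (edgeR adjusted p = 0.118). Scaling by the positive control probes in place of the housekeeping genes left a change of Card9 of -0.62 in WT and -0.20 in Trem1-/- cells, neither past the threshold.

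The markers of other cell states moved in the same comparisons. Of the 4 dendritic cell markers 3 fell in WT and 4 fell in Trem1-/- cells with inflammation. Of the 6 monocyte and macrophage markers 3 fell and 1 rose in WT, and 4 fell and 1 rose in Trem1-/- cells. Over the panel 47.3% of genes passed in WT and 49.1% in Trem1-/- cells, in either direction. The part of the markers in the lower Card9 was not tested.

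Whether inflammation acted differently in the 2 genotypes was tested directly as an interaction. None of the 3 genes passed, against 3.64% of all genes. The inflamed-against-control change was lower in Trem1-/- than in WT cells by a log2 difference of -0.87 for Nod2 (SE 0.49, 95% interval -1.84 to 0.09, edgeR adjusted p = 0.379). For Traf6 the difference was -0.59 (SE 0.42, 95% interval -1.42 to 0.24, edgeR adjusted p = 0.505). For Card9 it was 0.12 (SE 0.31, 95% interval -0.49 to 0.73, edgeR adjusted p = 0.896). These intervals leave room for a difference of more than 2-fold for Nod2 and Traf6 in one direction and for none at all.

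**Figure D2:**
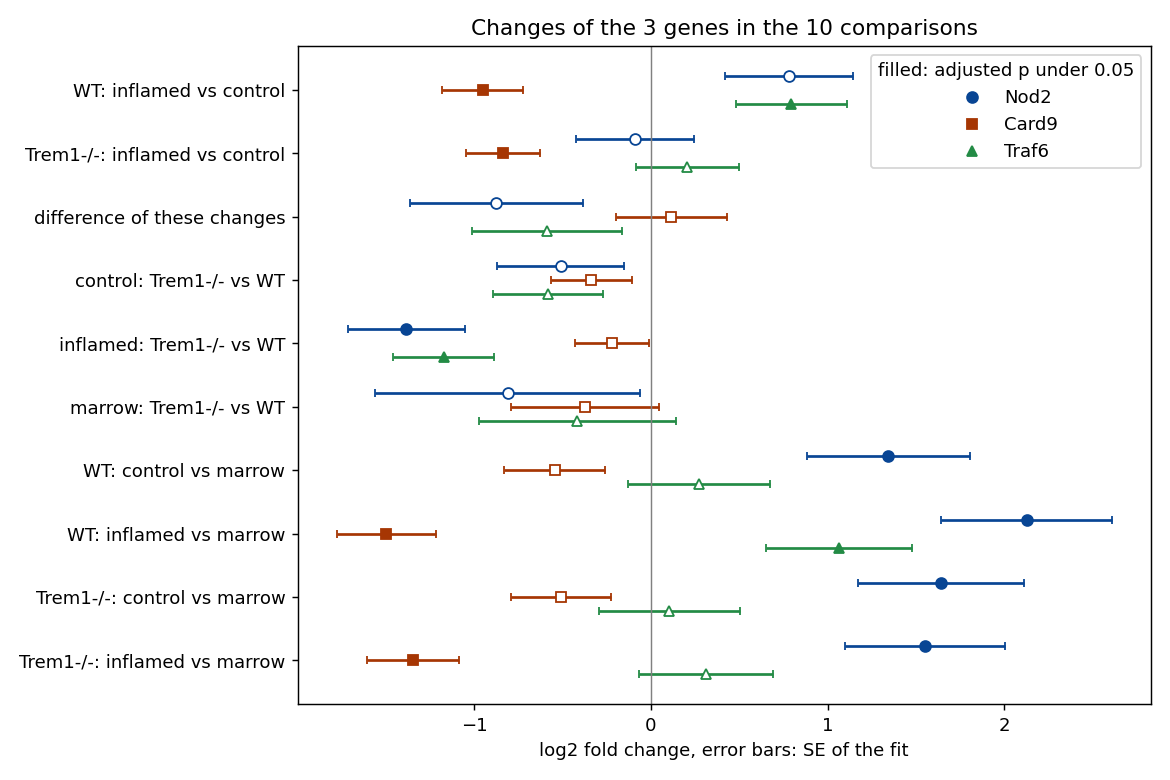
Log2 fold changes of the 3 genes with the SE of the edgeR fit as error bars, in the 10 comparisons. Filled symbols have an adjusted p under 0.05: Card9 is filled on the negative side in both inflamed-against-control comparisons, though its direction in Trem1-/- cells flipped in the authors' normalised values, and Nod2 and Traf6 are filled in the inflamed comparison of the genotypes.

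The third question is the difference between genotypes. In the inflamed intestine Nod2 and Traf6 were lower in Trem1-/- than in WT cells, and Card9 did not pass the test. Nod2 was 2.61-fold lower (log2 fold change -1.38, SE 0.33, edgeR adjusted p = 0.00277), and all 7 Trem1-/- samples lay below all 5 WT samples. Traf6 was 2.25-fold lower (log2 fold change -1.17, SE 0.29, edgeR adjusted p = 0.00277), with 3 of the 7 Trem1-/- samples below every WT sample. Card9 had a log2 fold change of -0.22 (SE 0.21, 95% interval -0.63 to 0.19, edgeR adjusted p = 0.425). Of all genes 32.7% passed, 20% did not overlap between the groups, and the median log2 fold change was -0.28.

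Both differences passed within each multiplier class that could be fitted. Each class held only 2 WT inflamed samples, against 4 Trem1-/- inflamed samples with multiplier 1 and 3 near 1.33. In the class near 1.33 the WT samples carried 1.333 and the Trem1-/- samples 1.33, so multiplier form and genotype cannot be told apart there. Nod2 was lower by a log2 fold change of -1.48 among samples with multiplier 1 and -1.10 among those near 1.33, and Traf6 by -1.41 and -0.73, all with an edgeR adjusted p under 0.05. Leaving out any 1 sample kept both calls, with Nod2 between -1.54 and -1.05 and Traf6 between -1.35 and -0.88. The scaling mattered more. With TMM factors, which set most genes of a sample level, Nod2 was at -0.69 (edgeR adjusted p = 0.082) and Traf6 at -0.51 (edgeR adjusted p = 0.315), while the median of all genes moved up by 0.54. Traf6 also lost its call with DESeq2. With the positive control probes Nod2 was at -2.22 and Traf6 at -1.91, and the median moved by -0.93. Of the genes called in this comparison 27.8% were higher in Trem1-/- cells as reported, 77.8% with TMM factors, 50% with DESeq2, 15.4% in the authors' normalised values and 0% with the positive control probes. Measured from the median of all genes, Nod2 was at -1.11 in the reported setting and between -1.11 and -0.83 over the 14 alternatives. The same distance for Traf6 was -0.89, and between -0.98 and -0.46 over the alternatives.

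Of the monocyte and macrophage markers 2 of 6 (Csf1r and Spi1) were also lower in Trem1-/- inflamed cells and none was higher, and none of the 4 dendritic cell markers passed. The 2 of 6 were close to the share of 32.7% over the panel. The summed monocyte and macrophage level did not overlap between the 2 inflamed groups. Within it mean Spi1 was 71665 in WT and 27310 in Trem1-/- inflamed samples, while mean Ccr2 was higher in Trem1-/- (40154) than in WT (25104). The part of these markers in the lower Nod2 and Traf6 was not tested.

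In the control intestine none of the 3 genes passed between genotypes, where 3.64% of all genes did and 7.27% did not overlap. Nod2 had a log2 fold change of -0.51 (SE 0.36, edgeR adjusted p = 0.431) and Traf6 one of -0.58 (SE 0.31, edgeR adjusted p = 0.246). Card9 had -0.34 (SE 0.23, edgeR adjusted p = 0.41), close to the median of all genes of -0.33. In the marrow no gene of 54 passed in edgeR, a share of 0%, where 3 had an unadjusted p under 0.05 and DESeq2 called 2, while 7.27% of genes did not overlap between the 3 WT and the 3 Trem1-/- samples. The log2 fold changes there were -0.81 for Nod2 (SE 0.75), -0.37 for Card9 (SE 0.42) and -0.41 for Traf6 (SE 0.56), beside a median of -0.31 over all genes. In each of the 3 marrow pairs with the same mouse number the Trem1-/- sample had the lower normalised count of all 3 genes. The panel as a whole leaned the same way, and the share of genes lower in all 3 pairs was not counted. The scaling factor was higher in the Trem1-/- sample of each pair (1.63, 1.47 and 1.40 against 1.58, 1.17 and 1.17). Before scaling, the Trem1-/- sample of mouse 3 had the higher counts (Nod2 1136 against 1030, Card9 26362 against 26085, Traf6 9501 against 8657). With the number as a replicate block none of the 3 genes passed (edgeR adjusted p = 0.719 for Nod2 and 0.77 for Card9 and Traf6). The sign of Card9 turned with TMM factors and DESeq2. With 3 samples a group those intervals are wide, that of Nod2 running from -2.28 to 0.66.

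The fourth question is how the cells in the intestine differed from marrow monocytes, a comparison that also crosses the transfer, the tissue and the sort. Nod2 was higher in all 4 intestinal groups than in marrow of the same genotype. In WT it was 2.54-fold higher in control samples (log2 fold change 1.34, SE 0.46, edgeR adjusted p = 0.0275) and 4.36-fold higher in inflamed ones (2.13, SE 0.48, edgeR adjusted p = 0.000527). In Trem1-/- cells it was 3.12-fold higher in control samples (1.64, SE 0.47, edgeR adjusted p = 0.0061) and 2.93-fold higher in inflamed ones (1.55, SE 0.45, edgeR adjusted p = 0.00456). In 3 of these 4 comparisons the ranges did not overlap, and in the other, WT control, 4 of 5 samples exceeded every marrow sample. The WT control call was lost without WT control mouse 2 or 3 or WT marrow mouse 1 or 3, with 1.07 as the lowest value, and the Trem1-/- control call without Trem1-/- marrow mouse 1 (1.35, edgeR adjusted p = 0.0533). Other settings ended the WT control call in 6 of 13 alternatives (0.43 with DESeq2, 0.70 with TMM factors), the Trem1-/- control call in 2 (0.70 with the positive control probes, 0.075 in the authors' values) and the Trem1-/- inflamed call in 3 (0.90 in the authors' values). The WT inflamed call passed in all 13.

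Card9 was lower than in marrow in both inflamed groups. The log2 fold change was -1.49 in WT (2.82-fold lower, SE 0.28, edgeR adjusted p = 6.46e-05) and -1.34 in Trem1-/- cells (2.54-fold lower, SE 0.26, edgeR adjusted p = 6.95e-05), and neither pair of groups overlapped. In the control groups Card9 had -0.54 in WT (SE 0.28, edgeR adjusted p = 0.142) and -0.51 in Trem1-/- cells (SE 0.28, edgeR adjusted p = 0.189). Traf6 passed only in WT inflamed samples among the 4 comparisons, at 1.07 (SE 0.41, edgeR adjusted p = 0.0322), a call that was lost without WT inflamed mouse 2 (0.78) or WT marrow mouse 2 (1.15) or 3 (0.74). It was also lost in 6 of 13 alternatives, with 0.081 under TMM factors and 0.0078 under DESeq2. Its other values were 0.27 in WT control, 0.10 in Trem1-/- control and 0.31 in Trem1-/- inflamed samples. Their sign turned in 5, 6 and 4 of 13 alternatives in the same order. In Trem1-/- control samples at least 1 of these passed, with Traf6 lower than in marrow.

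A change against marrow was common over the panel. The share of all genes past the threshold was 34.5% in WT control, 49.1% in WT inflamed, 34.5% in Trem1-/- control and 58.2% in Trem1-/- inflamed samples. The shares without overlap were 21.8%, 41.8%, 38.2% and 58.2% in the same order. The medians of all genes were 0.61, 0.94, 0.51 and 0.31 as reported, and -0.26, -0.17, -0.22 and -0.41 with DESeq2, so the direction of the panel depended on the scaling. Measured from the median, Card9 was at -2.44 in WT inflamed (-2.51 to -1.76 over 13 alternatives) and -1.65 in Trem1-/- inflamed samples (-2.01 to -1.25). Nod2 was at 0.74 in WT control (0.51 to 1.04), 1.19 in WT inflamed (1.03 to 1.68), 1.13 in Trem1-/- control (1.06 to 1.38) and 1.24 in Trem1-/- inflamed samples (0.64 to 1.44). The inflamed and control comparisons of a genotype share their marrow samples, and the comparisons above share their control samples, so their values are given side by side and not as repeats of each other.

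The ratio of 2 of the genes within a sample does not depend on how that sample is scaled. The probes differ in efficiency, so only differences of a ratio between groups can be read, not its level. The log2 ratio of Card9 to Traf6 in the 5 WT control samples lay between -0.08 and 0.96 and in the 5 WT inflamed samples between -1.85 and -0.22. In Trem1-/- cells it lay between 0.45 and 1.17 in control and between -0.60 and -0.04 in inflamed samples. Inflamed and control samples did not overlap in either genotype.

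The mean difference was -1.02 in Trem1-/- cells (two-sided exact permutation p = 0.00126, adjusted p = 0.0341 over 27 tests), the 1 test of the 27 that passed and the smallest p that 5 against 7 samples allow. Leaving out any 1 of these 12 samples raised the adjusted p to between 0.0563 and 0.0584. In WT cells the difference was -1.64 (two-sided exact permutation p = 0.00794, adjusted p = 0.0563), also the smallest p possible with 5 against 5. Without WT inflamed mouse 2 it passed, at -1.52 (exact permutation test, adjusted p = 0.0491). Between genotypes in the inflamed intestine the ratio differed by 0.86, higher in Trem1-/- cells (two-sided exact permutation p = 0.0253, adjusted p = 0.0568). The exact permutation p could not go below 0.00833 or 0.0179 in the tests against marrow, nor below 0.1 between the marrow groups.

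The log2 ratio of Nod2 to Traf6 passed no test. It differed by -0.18 between Trem1-/- and WT inflamed samples (two-sided exact permutation p = 0.694, adjusted p = 0.893) and by 0.06 between WT inflamed and WT control samples (two-sided exact permutation p = 0.929, adjusted p = 0.929). The spread of this ratio was wide, with an SD of 1.02 in WT inflamed and 0.33 in Trem1-/- inflamed samples, and WT inflamed mouse 2 combined the highest Traf6 with the lowest Nod2 of its group. The log2 ratio of Card9 to Nod2 had a difference of -1.70 between WT inflamed and WT control samples that did not pass, and the groups overlapped (two-sided exact permutation p = 0.0238, adjusted p = 0.0568). In WT cells this ratio differed from marrow by -1.84 in control and -3.54 in inflamed samples. In Trem1-/- cells it differed from marrow by -2.20 and -2.94. No pair of these groups overlapped, and each was at its smallest possible p without passing (exact permutation test, adjusted p = 0.0563 to 0.0568).

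**Figure D3:**
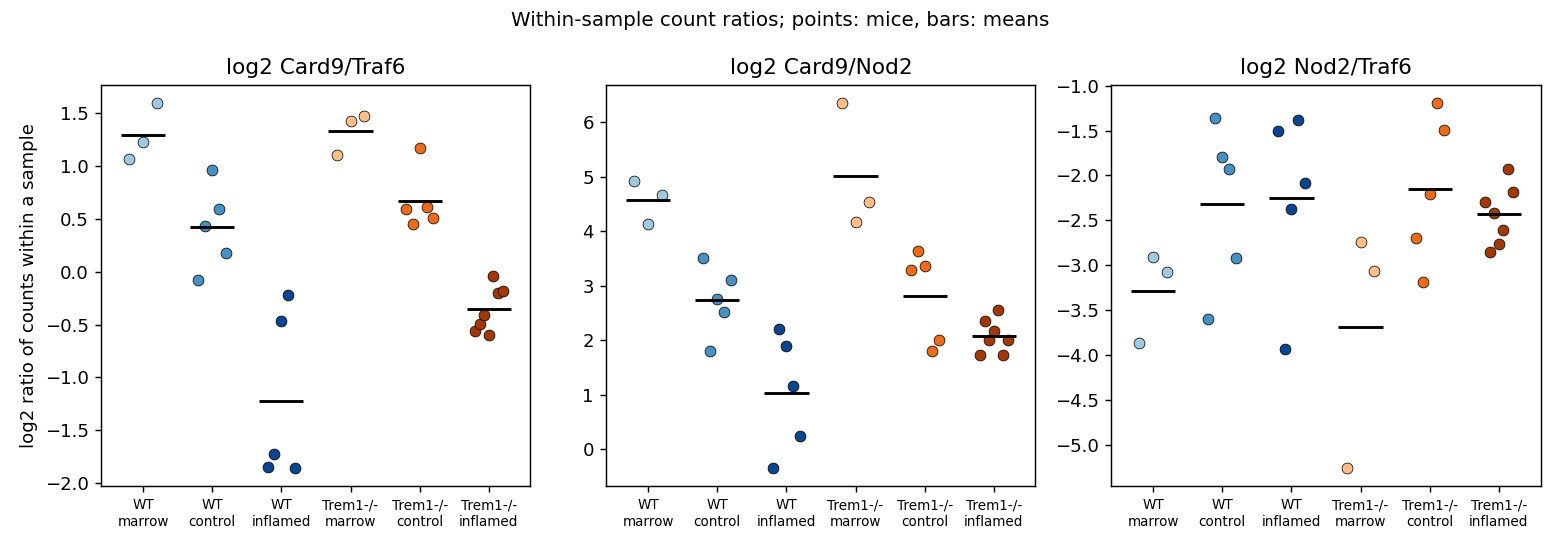
Log2 ratios of the counts of 2 genes within each of the 28 samples, 1 point per mouse, with group means as bars. The Card9 to Traf6 ratio separates inflamed from control samples in both genotypes, and the Nod2 to Traf6 ratio has an SD of 1.02 in WT inflamed and 0.33 in Trem1-/- inflamed samples.

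Over the 6 groups the log2 means spanned 2.89 for Nod2, 1.68 for Card9 and 1.46 for Traf6, beside a median span of 2.43 over the 55 genes. The genes with the most similar profile were found as those with the smallest root-mean-square difference of the 6 group means, each gene centred on its own mean. Nearest to Nod2 of 54 other genes were Cd80, a costimulatory ligand, at 0.41, Nfkb2, an NF-kappaB subunit, at 0.44 and Ccr7, a chemokine receptor of migrating dendritic cells, at 0.48. Nearest to Card9 were Stat6, a transcription factor of interleukin 4 signalling, at 0.31, Tlr8, an endosomal RNA receptor, at 0.32 and Emr1, a macrophage surface receptor, at 0.39. Nearest to Traf6 were Tlr4, the lipopolysaccharide receptor, at 0.20, Nfkb2 at 0.25 and Relb, an NF-kappaB subunit, at 0.32. The median difference to all other genes was 1.16 for Nod2, 1.04 for Card9 and 0.91 for Traf6, all on the log2 scale. These are descriptions over 6 points that share their samples.

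**Figure D4:**
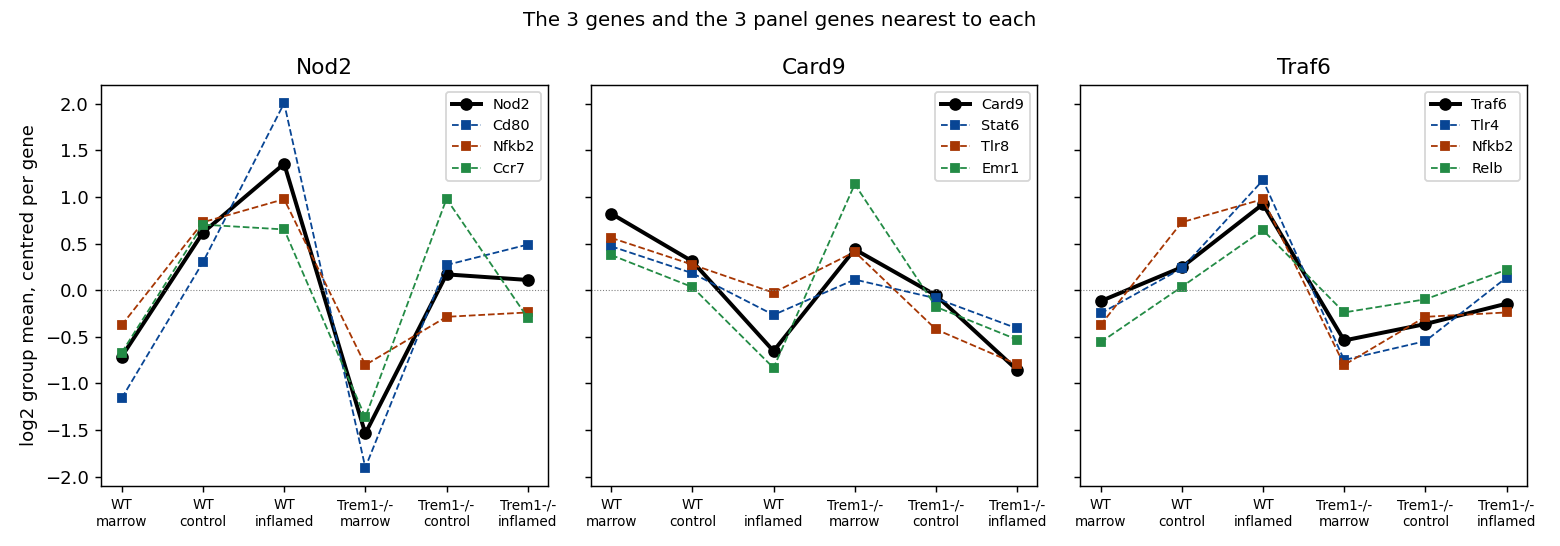
Log2 group means of Nod2, Card9 and Traf6 over the 6 groups, each gene centred on its own mean, with the 3 most similar panel genes of each as dashed lines. Traf6 and Tlr4 lie closest of all 9 pairs (root-mean-square difference 0.20), and both are highest in WT inflamed samples, a likeness for which the pairs were chosen.

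The genes around the 3 in the same pathways were represented by 17 panel genes: 6 receptors, 3 NF-kappaB subunits and 8 inducible outputs. No adaptor or kinase of the list (such as Myd88, Ripk2, Syk, Bcl10 or Malt1) was on the panel. With inflammation in WT cells 10 of the 17 rose, none fell and 7 did not pass, with a median log2 fold change of 1.11 beside -0.08 for all genes. Of all 55 genes 47.3% passed in that comparison, 14 higher and 12 lower. All 8 outputs rose, among them Il1a, an alarmin cytokine, by 4.07 (SE 0.43, edgeR adjusted p = 7.63e-08), as did 2 of the 6 receptors, and none of the 3 NF-kappaB subunits passed. In Trem1-/- cells 8 rose, 1 fell and 8 did not pass (median 0.71 beside 0.10 for all genes), and the neutrophil chemoattractant Cxcl1 rose by 5.47 (SE 0.42, edgeR adjusted p = 6.1e-10). The share over the panel was 49.1% there, 12 genes higher and 15 lower. Of the 8 outputs 7 rose in Trem1-/- cells, and Il1b did not pass (0.63, SE 0.36, edgeR adjusted p = 0.156).

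Between genotypes in the inflamed intestine 3 of the 17 were higher in Trem1-/- cells, 4 were lower and 10 did not pass (median -0.34 beside -0.28 for all genes). The 4 lower ones were 2 of the receptors and 2 of the 3 NF-kappaB subunits, and the 3 higher ones were outputs. Nfkb1, which encodes the precursor of the p50 subunit, was lower by a log2 fold change of -1.39 (SE 0.25, edgeR adjusted p = 0.000227). The anti-inflammatory cytokine Il10 was higher by 1.53 (SE 0.28, edgeR adjusted p = 0.000228) and Cxcl1 by 1.30 (SE 0.34, edgeR adjusted p = 0.0046). Tlr4 and Nfkb2, the nearest genes to Traf6, were lower by -1.25 (SE 0.30, edgeR adjusted p = 0.00277) and -1.22 (SE 0.25, edgeR adjusted p = 0.000979). They were named for group means like those of Traf6 in these same samples, so a direction shared with Traf6 follows from that choice. The 2 of 6 receptors called were close to the share of 32.7% over the panel, and Relb, the other subunit, did not pass (-0.51, edgeR adjusted p = 0.335). These directions are as reported, and with TMM factors 77.8% of the genes called were higher in Trem1-/- cells.

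In the control intestine 1 of the 17 passed, Nfkb2, lower in Trem1-/- cells by -1.10 (SE 0.28, edgeR adjusted p = 0.0206; median of the list -0.24 beside -0.33 for all genes). In the interaction 1 passed, Il10, with a larger rise in Trem1-/- cells by 1.74 (SE 0.39, edgeR adjusted p = 0.013), and in marrow none of the 17 passed in edgeR, nor had any an unadjusted p under 0.05. Against marrow, 6 of the 17 were higher in WT control, 11 in WT inflamed, 6 in Trem1-/- control and 10 in Trem1-/- inflamed samples, and 2 were lower in the last of these. Over the panel the share called was 34.5%, 49.1%, 34.5% and 58.2%, so the 6 of 17 in both control groups were near the background. The lipopolysaccharide co-receptor Cd14 was higher than in marrow by 2.68 in WT control (SE 0.36, edgeR adjusted p = 1.44e-06) and by 3.35 in Trem1-/- control samples (SE 0.38, edgeR adjusted p = 6.9e-08). The inflammatory cytokine Il1b was higher than in marrow by 4.79 in WT control (SE 0.61, edgeR adjusted p = 7.88e-07), by 6.09 in WT inflamed (SE 0.65, edgeR adjusted p = 1.19e-08) and by 5.11 in Trem1-/- control samples (SE 0.62, edgeR adjusted p = 2.2e-07).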

How the data were processed

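The raw table that the authors deposited holds barcode counts as read in 14 samples. The other 14 columns, taken here for estimated counts, were deposited by the authors as whole numbers times 1.33, 1.333 or 2, found as the largest common divisor of a column's gene values and here divided out (tolerance 0.0001). The reason for these multipliers is not given in the sources used here, and the planned tests were kept. The authors also deposited normalised values, a score with no stated unit, which entered only as an alternative. Per the series' design text, targets were enriched by multiplexed pre-amplification of the cDNA before hybridisation.

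A gene was tested when above background (mean plus 2 SD of the negative controls) in at least 3 samples of a fit. The test was edgeR's quasi-likelihood test (version 4.0.16, R 4.3.3) with housekeeping offsets, adjusted over all genes tested (Benjamini-Hochberg, threshold 0.05). The 22 intestinal samples, the 6 marrow samples and all 28 samples (against marrow) were fitted separately. SE is the absolute log2 fold change over the square root of F, and intervals are 1.96 SE wide on each side. DESeq2 1.42.0, limma 3.58.1 (pseudocount 1), other scalings, multiplier classes, a replicate block and leaving out each sample were alternatives. The fits were tested on counts simulated for WT inflamed against control, with 1 spread for all genes. Unchanged genes were called in 0.814% of cases. True log2 changes of 1 and -1 were called in 16.7% and 26.7%, and those of 2 and -2 in 85% and 78.3%. Changes of 1 were thus mostly missed there. Mouse numbers paired the marrow samples by the rule used (correlation of deviations above 0.1 in every pair: 0.79, 0.20 and 0.46), without a label that says why. Replicates differed by far more than counting noise, with a chi-square per degree of freedom of at least 264.9. Named besides the 3 members and the cell markers were the 3 panel genes nearest to each and at most 3 list genes per comparison, from those with the largest change. Il1b was also named in Trem1-/- inflamed against control samples, where it did not pass. Left out with inflammation, though among the 3 largest, were Il6 (5.12 in WT, 4.90 in Trem1-/- cells) and Il23a (4.78 and 5.63). No fold against marrow is given for Il1a, Il6 and Cxcl1, whose marrow counts were low. The members and lists were chosen with earlier results of these data known. Intervals and p-values measure the spread between samples.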

Additional observations from a re-analysis of the deposited data

Results flagged for a closer look

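One value stood apart from its group. The log2 ratio of Card9 to Traf6 in Trem1-/- control mouse 3 was 1.17, and its gap to the next sample took 0.784 of the range of the group, above the critical value of 0.71 for 5 samples. That sample had Card9 at 21942 and Traf6 at 9784 normalised counts, so its Card9 lay with the higher and its Traf6 with the lower samples of the group. In all 24 groups of values were looked at in this way, and chance flags about 1 in 20. Without this sample the difference of the ratio between Trem1-/- inflamed and control samples was -0.89 (exact permutation test, adjusted p = 0.0563).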

How the results depend on the processing

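Each result was recomputed under up to 14 other settings and without each sample in turn. Using the counts as deposited, or no filter on low counts, left the call and direction of all 3 genes as reported in each comparison. Card9 against marrow in both inflamed groups and Nod2 in WT inflamed against marrow kept their calls in all 13 alternatives and without any 1 of 28 samples. The following results changed sign or crossed the threshold of 0.05, with the reported log2 value in brackets. They are listed together, whether a call was lost or gained or the sign turned. The cause was not tested, except that leaving out a sample raises the smallest p that a permutation of the ratios can reach. Card9 in WT inflamed against WT control (-0.95) was at -0.62 with positive-control scaling, -0.40 with the authors' normalised values and -0.76 with multiplier 1 alone. Nod2 in WT inflamed against WT control (0.78) gained a call at 0.71 with DESeq2, 1.03 with Rpl19 left out of the scaling and 1.30 with the authors' normalised values. It was at 0.45 to 1.01 with 1 sample left out, and passed in 3 of those fits. Traf6 in WT inflamed against WT control (0.79) was at 0.22 with TMM scaling, 0.72 with DESeq2, 0.59 with Actb left out of the scaling, 0.77 with Gapdh left out of the scaling, 0.68 with limma, 0.71 with the replicate block and 0.15 with multipliers near 1.33 alone, and 0.50 to 0.98 with 1 sample left out. Card9 in Trem1-/- inflamed against Trem1-/- control (-0.83) was at -0.20 with positive-control scaling, 0.081 with the authors' normalised values and -0.48 with multipliers near 1.33 alone. Nod2 in Trem1-/- inflamed against Trem1-/- control (-0.091) was at 0.36 with positive-control scaling, 0.11 with Rpl19 left out of the scaling, 0.82 with the authors' normalised values and 0.38 with multiplier 1 alone, and -0.20 to 0.053 with 1 sample left out. Traf6 in Trem1-/- inflamed against Trem1-/- control (0.21) was at -0.26 with TMM scaling, -0.041 with DESeq2, 0.86 with positive-control scaling, -0.062 with Actb left out of the scaling and 1.10 with the authors' normalised values. Card9 in the interaction (0.12) was at -0.068 with DESeq2 and -0.22 with multiplier 1 alone, and -0.025 to 0.24 with 1 sample left out. Traf6 in the interaction (-0.59) was at 0.056 with multipliers near 1.33 alone. Card9 in Trem1-/- against WT control (-0.34) was at 0.26 with TMM scaling, 0.25 with DESeq2, -1.45 with positive-control scaling, 0.061 with multiplier 1 alone and -1.04 with multipliers near 1.33 alone. Nod2 in Trem1-/- against WT control (-0.51) was at -1.52 with positive-control scaling. Traf6 in Trem1-/- against WT control (-0.58) was at -1.70 with positive-control scaling, -1.27 with the authors' normalised values and -0.79 with multipliers near 1.33 alone. Card9 in Trem1-/- against WT inflamed (-0.22) was at 0.38 with TMM scaling, 0.18 with DESeq2 and -1.02 with positive-control scaling. Nod2 in Trem1-/- against WT inflamed (-1.38) was at -0.69 with TMM scaling. Traf6 in Trem1-/- against WT inflamed (-1.17) was at -0.51 with TMM scaling and -0.80 with DESeq2. Card9 in Trem1-/- against WT marrow (-0.37) was at 0.00052 with TMM scaling and 0.0063 with DESeq2. Card9 in WT control against marrow (-0.54) was at -1.24 with TMM scaling, -1.53 with DESeq2 and -0.95 with Rpl19 left out of the scaling. Nod2 in WT control against marrow (1.34) was at 0.70 with TMM scaling, 0.43 with DESeq2, 1.08 with positive-control scaling, 1.00 with Rpl19 left out of the scaling, 0.71 with the authors' normalised values and 1.37 with the replicate block, and 1.07 to 1.73 with 1 sample left out. Traf6 in WT control against marrow (0.27) was at -0.38 with TMM scaling, -0.70 with DESeq2, -0.28 with positive-control scaling, -0.15 with Rpl19 left out of the scaling and -0.25 with the authors' normalised values, and -0.050 to 0.58 with 1 sample left out. Traf6 in WT inflamed against marrow (1.07) was at 0.081 with TMM scaling, 0.0078 with DESeq2, 0.79 with positive-control scaling, 0.87 with Rpl19 left out of the scaling, 0.99 with the authors' normalised values and 0.50 with multipliers near 1.33 alone, and 0.74 to 1.38 with 1 sample left out. Card9 in Trem1-/- control against marrow (-0.51) was at -1.18 with DESeq2, -1.56 with positive-control scaling and -2.12 with the authors' normalised values. Nod2 in Trem1-/- control against marrow (1.64) was at 0.70 with positive-control scaling and 0.075 with the authors' normalised values, and 1.35 to 2.05 with 1 sample left out. Traf6 in Trem1-/- control against marrow (0.10) was at -0.26 with TMM scaling, -0.59 with DESeq2, -0.96 with positive-control scaling, -0.17 with Rpl19 left out of the scaling, -1.46 with the authors' normalised values and -0.031 with the multiplier block, and -0.15 to 0.64 with 1 sample left out. Nod2 in Trem1-/- inflamed against marrow (1.55) was at 1.05 with positive-control scaling, 0.90 with the authors' normalised values and 1.05 with multipliers near 1.33 alone. Traf6 in Trem1-/- inflamed against marrow (0.31) was at -0.37 with TMM scaling, -0.68 with DESeq2, -0.10 with positive-control scaling and -0.35 with the authors' normalised values. The log2 ratio Card9 to Traf6 in WT inflamed against WT control (-1.64) was at -1.89 to -1.48 with 1 sample left out. The log2 ratio Card9 to Traf6 in Trem1-/- inflamed against Trem1-/- control (-1.02) was at -1.07 to -0.89 with 1 sample left out. The log2 ratio Card9 to Traf6 in Trem1-/- marrow against WT marrow (0.037) was at -0.078 to 0.19 with 1 sample left out. The log2 ratio Nod2 to Traf6 in WT inflamed against WT control (0.061) was at -0.26 to 0.48 with 1 sample left out. The log2 ratio Nod2 to Traf6 in Trem1-/- control against WT control (0.16) was at -0.16 to 0.42 with 1 sample left out. The log2 ratio Nod2 to Traf6 in Trem1-/- inflamed against WT inflamed (-0.18) was at -0.60 to 0.040 with 1 sample left out. The log2 ratio Nod2 to Traf6 in Trem1-/- marrow against WT marrow (-0.40) was at -0.88 to 0.38 with 1 sample left out. The log2 ratio Card9 to Nod2 in Trem1-/- control against WT control (0.084) was at -0.15 to 0.34 with 1 sample left out. The log2 ratio Card9 to Nod2 in Trem1-/- inflamed against WT inflamed (1.04) was at 0.70 to 1.34 with 1 sample left out. The log2 ratio Card9 to Nod2 in Trem1-/- marrow against WT marrow (0.44) was at -0.23 to 0.87 with 1 sample left out. The mouse numbers did not pair the intestinal samples: over 20 pairs of intestinal samples with the same number, deviations from the group means correlated from -0.66 to 0.59, and 9 pairs were above 0.1. With the mouse number as a replicate block, Traf6 in WT inflamed against control (0.71) and Nod2 in WT control against marrow (1.37) lost their calls, and no other call of the 3 genes changed. Genes were called in the inflamed comparison of the genotypes 18 times as reported, 9 with TMM scaling and 29 with positive-control scaling, with 27.8%, 77.8% and 0% of them higher in Trem1-/- cells. The 2 calls in the control comparison of the genotypes became 29 with positive-control scaling, 12 in the authors' values, 6 with the multiplier block, 11 and 13 within the multiplier classes, 4 with Rpl19 left out, 1 with the replicate block and 0 with TMM scaling. The 2 calls of the interaction became 7 with DESeq2, 4 with the multiplier block, 16 within multiplier 1, 1 with positive-control scaling or the replicate block, and 0 in the authors' values or within multipliers near 1.33. In WT inflamed against control 26 calls became 17 with positive-control scaling. In WT control against marrow 19 calls became 11 with positive-control scaling and 8 in the authors' values, and in Trem1-/- control against marrow 19 became 29 with DESeq2. The 0 calls between marrow genotypes became 2 with DESeq2 or positive-control scaling and 1 with Rpl19 left out. Within multiplier 1 alone no marrow comparison could be fitted, as it left 1 marrow sample a group. The counts of the 3 genes were at least 17.3 times the background limit. As the RNA was amplified, this does not show how many RNA molecules were sampled, which was not tested.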
